A study of Homo sapiens with 17 samples.

Results

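A set of 7 long noncoding RNA genes, MALAT1, NEAT1, TUG1, NORAD, OIP5-AS1, LINC-ROR and ESRG, was examined in chromatin maps of H1 cells. They were taken as a list of names, 7 of the 59679 RefSeq genes placed on the chromosomes of GRCh38, and every called summit from 10 kb before to 10 kb after each gene was collected. CUT&Tag, in which an antibody directs a transposase to cut and tag nearby DNA, was carried out on H1, an established human pluripotent stem cell line kept in feeder-free culture. The 17 libraries cover H3K4me1, a histone mark of enhancers, H3K27ac, a mark of active enhancers and promoters, HNRNPU, a nuclear RNA-binding protein, and POLIIS2P, the name the titles give to the last antibody, which usually stands for RNA polymerase II phosphorylated at serine 2 of its repeats. The comparison asks how the marks at a gene differ once an shRNA against HNRNPU is present.

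The shHNRNPU#1 and shHNRNPU#2 cells received virus carrying 1 of 2 shRNAs against HNRNPU, the shLUC cells received virus against luciferase, and all of these cells were selected with puromycin. HNRNPU libraries (2) came from untransfected cells, so HNRNPU itself was mapped only where no shRNA had been given. Each histone mark had 2 libraries for each of shHNRNPU#1, shHNRNPU#2 and shLUC. POLIIS2P had 1 library of shHNRNPU#1 and 2 of shLUC. No source used here says that repeats came from separate cultures, so p-values measure the spread between these libraries, which may be technical. The antibody list in the labels' protocol has entries for H3K27ac and HNRNPU but none for H3K4me1 or POLIIS2P, and no library with a control antibody was analysed here.

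Titles and file names disagree on the antibody of the 4 shLUC histone libraries. File names were followed here, and values by sample title are given where they change a call among the 7 genes. Other changes by title, in direction or at single sites, are not all given. The lists named H3K27ac in this way held 62449 and 90914 summits and those named H3K4me1 held 179137 and 181357, beside 40487 to 85142 in the H3K27ac lists and 147145 to 214333 in the H3K4me1 lists of the shHNRNPU cells. The HNRNPU lists held 34649 and 35526 summits and the POLIIS2P lists 79949 to 87456. Read depth is unknown, and no interval could be given for a single library. A score, the −log10 of the peak caller's significance value, ranks summits only within a list, so each summit is given by its percentile there, the share of the list's summits that score no higher. The top percentile of a gene is that of its highest-scoring summit in the window, and 0 where the list has none. Among 8 pluripotency markers, 7 had an H3K27ac summit in all 6 H3K27ac libraries and 8 a POLIIS2P summit in all 3. Of 8 markers of liver, blood, muscle, pancreas and skin, 0 had H3K27ac in all 6, but only 1 lacked it in every library. For POLIIS2P, 2 of these markers (APOA1 and MYH6) had a summit in all 3 and 4 had none. At the HNRNPU gene, the target of the shRNAs, POLIIS2P and H3K27ac summits were present in every library, but these assays do not measure its transcript and so do not check the knockdown.

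Long noncoding RNAs of this kind are transcribed by RNA polymerase II, and several of them stay in the nucleus. MALAT1 gathers in nuclear speckles beside splicing factors, NEAT1 forms the scaffold of paraspeckles, and HNRNPU binds many nuclear transcripts and attaches them to chromatin. NORAD holds PUMILIO proteins in the cytoplasm, OIP5-AS1 (also called cyrano) is a conserved RNA, and LINC-ROR and ESRG were described in pluripotent cells. TUG1, first described in the retina, is classed as protein coding in the RefSeq table used here.

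Promoters of 4 of the 7 genes are in the RefSeq table (GRCh38.p14). MALAT1 has 2 entries, of which only the first held summits and is printed, and their sequences are shown because HNRNPU summits fell in them. Each covers 250 bases before the gene's start to 50 bases after it, 5′ to 3′ on the gene's strand, and the 11 capitals are centred on the summit of HNRNPU repeat 1. MALAT1 lies at chr11:65497488-65497787 on the plus strand, TUG1 at chr22:30969015-30969314 on the plus strand, NORAD at chr20:36050911-36051210 on the minus strand and OIP5-AS1 at chr15:41283740-41284039 on the plus strand.
MALAT1: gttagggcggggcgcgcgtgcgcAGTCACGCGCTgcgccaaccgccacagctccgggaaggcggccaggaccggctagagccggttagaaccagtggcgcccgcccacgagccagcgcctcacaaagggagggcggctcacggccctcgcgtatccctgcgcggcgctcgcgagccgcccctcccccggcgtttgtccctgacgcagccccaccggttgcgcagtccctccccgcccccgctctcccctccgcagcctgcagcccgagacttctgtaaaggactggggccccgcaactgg
TUG1: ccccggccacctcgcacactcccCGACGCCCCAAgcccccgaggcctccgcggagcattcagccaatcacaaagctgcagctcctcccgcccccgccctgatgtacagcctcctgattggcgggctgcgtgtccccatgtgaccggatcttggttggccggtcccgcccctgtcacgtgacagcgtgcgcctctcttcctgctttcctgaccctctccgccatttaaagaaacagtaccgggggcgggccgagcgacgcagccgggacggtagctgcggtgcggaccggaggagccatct
NORAD: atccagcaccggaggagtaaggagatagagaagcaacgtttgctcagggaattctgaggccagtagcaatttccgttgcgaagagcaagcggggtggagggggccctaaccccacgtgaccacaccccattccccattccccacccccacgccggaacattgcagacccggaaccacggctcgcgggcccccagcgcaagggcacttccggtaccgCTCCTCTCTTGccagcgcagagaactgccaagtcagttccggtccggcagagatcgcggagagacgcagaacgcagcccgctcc
OIP5-AS1: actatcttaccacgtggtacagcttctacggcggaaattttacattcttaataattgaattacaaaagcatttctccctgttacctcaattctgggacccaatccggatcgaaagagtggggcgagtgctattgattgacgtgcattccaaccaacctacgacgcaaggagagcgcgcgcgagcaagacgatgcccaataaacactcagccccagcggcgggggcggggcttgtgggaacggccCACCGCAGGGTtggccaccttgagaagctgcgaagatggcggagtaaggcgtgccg
The first MALAT1 promoter held 37 CG dinucleotides, and 88.7% of the 35116 promoters in the table held fewer. TUG1 had 28, while NORAD and OIP5-AS1 had 23 each, with 73.8% and 64.2% of promoters below them. GC content was 73.7% at MALAT1, 67.7% at TUG1, 63.0% at NORAD and 54.3% at OIP5-AS1. On either strand, the letters GGGCGG, found in 45.0% of all promoters, occurred 5 times at MALAT1, 4 times at TUG1, once at OIP5-AS1 and not at NORAD. CCAAT, found in 34.6%, occurred 2 times each at TUG1 and OIP5-AS1. CACGTG, found in 7.26%, occurred once each at TUG1, NORAD and OIP5-AS1. The first MALAT1 promoter held neither CCAAT nor CACGTG. Its other entry, at chr11:65498795-65499094, held 14 CG dinucleotides (49.7% of promoters held fewer), had a GC content of 46% and contained none of the 3 motifs. These matches describe letters in a window and were not set against binding. NEAT1, LINC-ROR and ESRG have no entry in the promoter table, and their strand is not given there, so positions at these genes are counted from the end with the lower or the higher coordinate.

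The 7 windows held 431 summits over the 17 lists. Of the 24 HNRNPU summits among them, 10 lay within 1 kb of an end of a member, 3 elsewhere inside one and 11 in the flanks. For H3K27ac 32.3% of 99 summits, for POLIIS2P 32.3% of 93 and for H3K4me1 20.5% of 215 lay within 1 kb of a gene end. Windows were 25343 to 50642 bp long and reach into other genes, so a summit in a window is not always a summit of the member. The heat map of top percentiles shows MALAT1 near the top of every list, NEAT1 near the top of the histone lists and LINC-ROR at the bottom, or absent, in HNRNPU repeat 1 and the POLIIS2P lists.

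**Figure D1:**
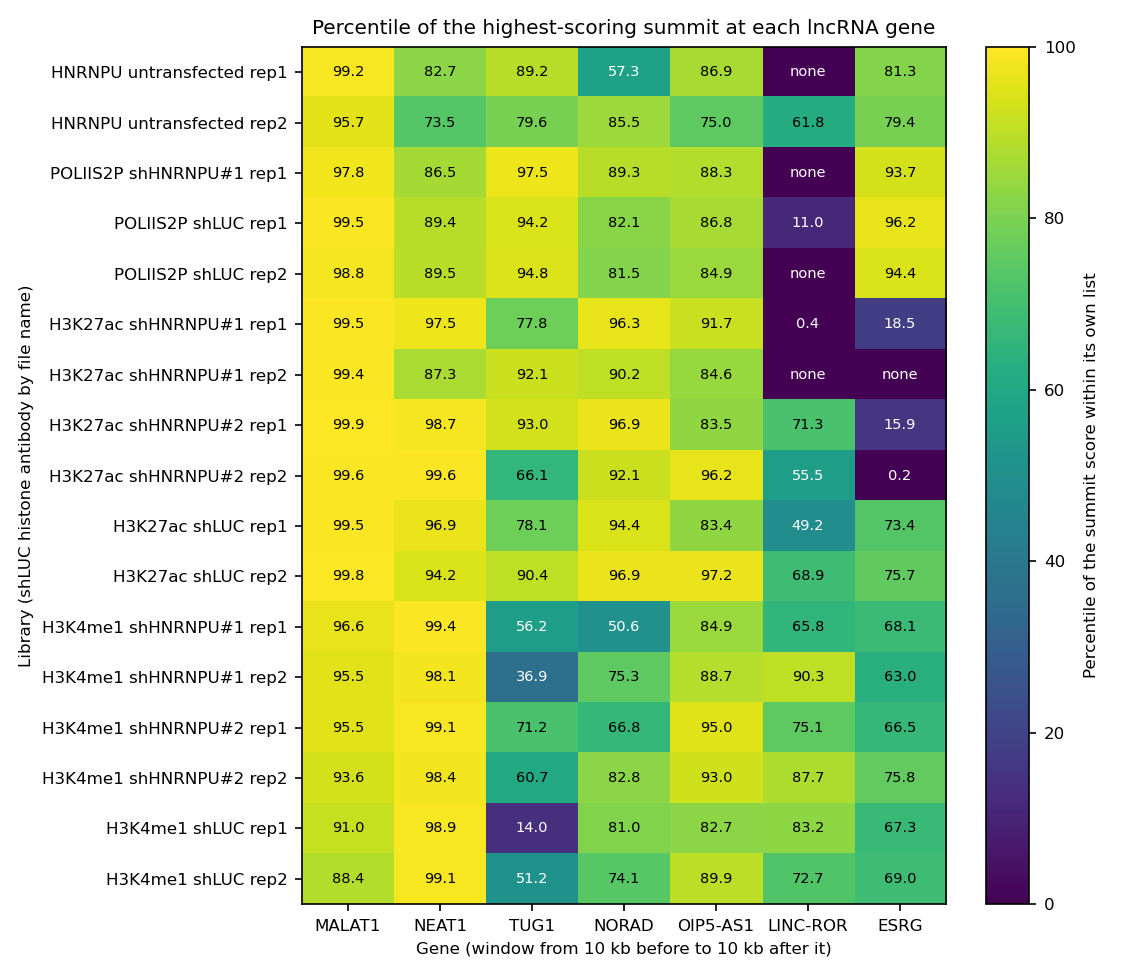
Heat map of the top percentile of each gene (columns) in each of the 17 libraries (rows, grouped by antibody); colour runs from 0 to 100 and "none" marks a list with no summit in the window. MALAT1 lay between 88.4 and 99.9 in every library, and H3K27ac at ESRG lay at or below 18.5 in the 4 shHNRNPU libraries against 73.4 and 75.7 in shLUC.

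HNRNPU summits of both repeats within 250 bp of each other were found at 5 of the 7 genes, MALAT1, NEAT1, NORAD, OIP5-AS1 and ESRG. The same held for 35.9% of all RefSeq genes and for 28.1% of the 18303 RefSeq lncRNA genes. MALAT1 had the highest top percentiles of the 7 genes in both repeats, 99.2 and 95.7, above every other value at these genes. The mean of these values exceeded that of 97.2% of all genes and 98.6% of lncRNA genes. TUG1 (89.2 and 79.6), OIP5-AS1 (86.9 and 75.0), ESRG (81.3 and 79.4), NEAT1 (82.7 and 73.5) and NORAD (57.3 and 85.5) followed in that order of mean, and the ranges of all of these overlapped with those of their neighbours. LINC-ROR had no summit in repeat 1 and 61.8 in repeat 2. The order describes 2 libraries and was not tested.

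At the 4 promoters printed above, HNRNPU lay beside the start of the gene. In MALAT1 the summits nearest the start were at −222 bp and −165 bp from it. The repeats shared another MALAT1 site at −9986 bp and −9983 bp (percentiles 87.2 and 92.0), within LINC02736. Past the 3′ end of MALAT1, repeat 1 had a summit at percentile 62.0 and repeat 2 had summits at 60.1 and 72.6. NORAD, read from the minus strand, had its only HNRNPU summits 29 and 97 bp upstream of its start. In OIP5-AS1 they were at base 41283989 and base 41284168, beside the start in the promoter table (41283990), which is 1293 bp inside the RefSeq gene record. TUG1 had a summit at −222 bp in repeat 1 and at −483 bp in repeat 2, which are 261 bp apart and so just missed the 250 bp rule. The start of TUG1 and the end of MORC2 are 491 bp apart, and HNRNPU there cannot be assigned to one of them.

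At NEAT1 the 2 HNRNPU sites shared by the repeats were outside the gene. They were at −3698 bp and −3700 bp from the lower-coordinate end and beside the transcribed pseudogene FAUP4 more than 9 kb past the higher end. MALAT1 and ESRG also had shared sites outside the gene. Inside NEAT1 the only HNRNPU summit was 1 of repeat 1, at percentile 16.9. At ESRG, both repeats had a summit just past the higher-coordinate end (81.3 and 79.4) and a second pair about 2 kb before the lower end (35.6 and 69.2). ESRG lies within CACNA2D3, a calcium channel subunit gene.

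POLIIS2P was called at 6 of the 7 genes in all 3 libraries, beside 46.5% of all RefSeq genes. In shHNRNPU#1, shLUC repeat 1 and shLUC repeat 2, the top percentile was 97.8, 99.5 and 98.8 at MALAT1, 97.5, 94.2 and 94.8 at TUG1, and 93.7, 96.2 and 94.4 at ESRG. These 3 genes were at 93.7 or above in every library. NEAT1 had 86.5, 89.4 and 89.5, OIP5-AS1 88.3, 86.8 and 84.9, and NORAD 89.3, 82.1 and 81.5. The NEAT1 values came from 3 different places outside the gene. In the same order, these were about −3695 bp and −6309 bp from the lower-coordinate end and 9528 to 9584 bp past the higher end. In windows of 2 kb, NEAT1 had 45.6, 55.1 and 48.1. The OIP5-AS1 values also came from different places, all inside that gene. LINC-ROR had a single summit in shLUC repeat 1, at percentile 11.0, and none in the other 2 libraries, although H1 is a pluripotent line. With 1 shHNRNPU library there was no test. NORAD was the only gene whose shHNRNPU#1 value lay more than 5 percentile points outside both shLUC values, and it was higher. Of 34605 genes, 13.9% were higher and 17.8% lower by the same rule.

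Within MALAT1, POLIIS2P had its strongest summit not at the start but 351 to 618 bp past the 3′ end, at percentile 97.8 in shHNRNPU#1 and 99.5 and 98.8 in shLUC. The summit between −203 bp and −22 bp from the start was at 94.1, 84.4 and 86.5 in the same order. TALAM1, the RNA antisense to MALAT1, covers this 3′ end, and both strands cannot be told apart in these maps. A further site 1850 to 1899 bp past the 3′ end had 91.6 in shHNRNPU#1, 27.2 in shLUC repeat 1 and no summit in shLUC repeat 2. NORAD had a comparable site from −1447 bp to −1031 bp beyond its 3′ end, at 78.8 in shHNRNPU#1 against 46.0 and 34.1. At these further sites the single shHNRNPU library was above both shLUC libraries. It was below both at the strongest site past MALAT1, and between them at the NORAD site nearest the 3′ end (−336 bp to −159 bp), at 45.4 against 19.5 and 51.0. No test was possible.

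**Figure D2:**
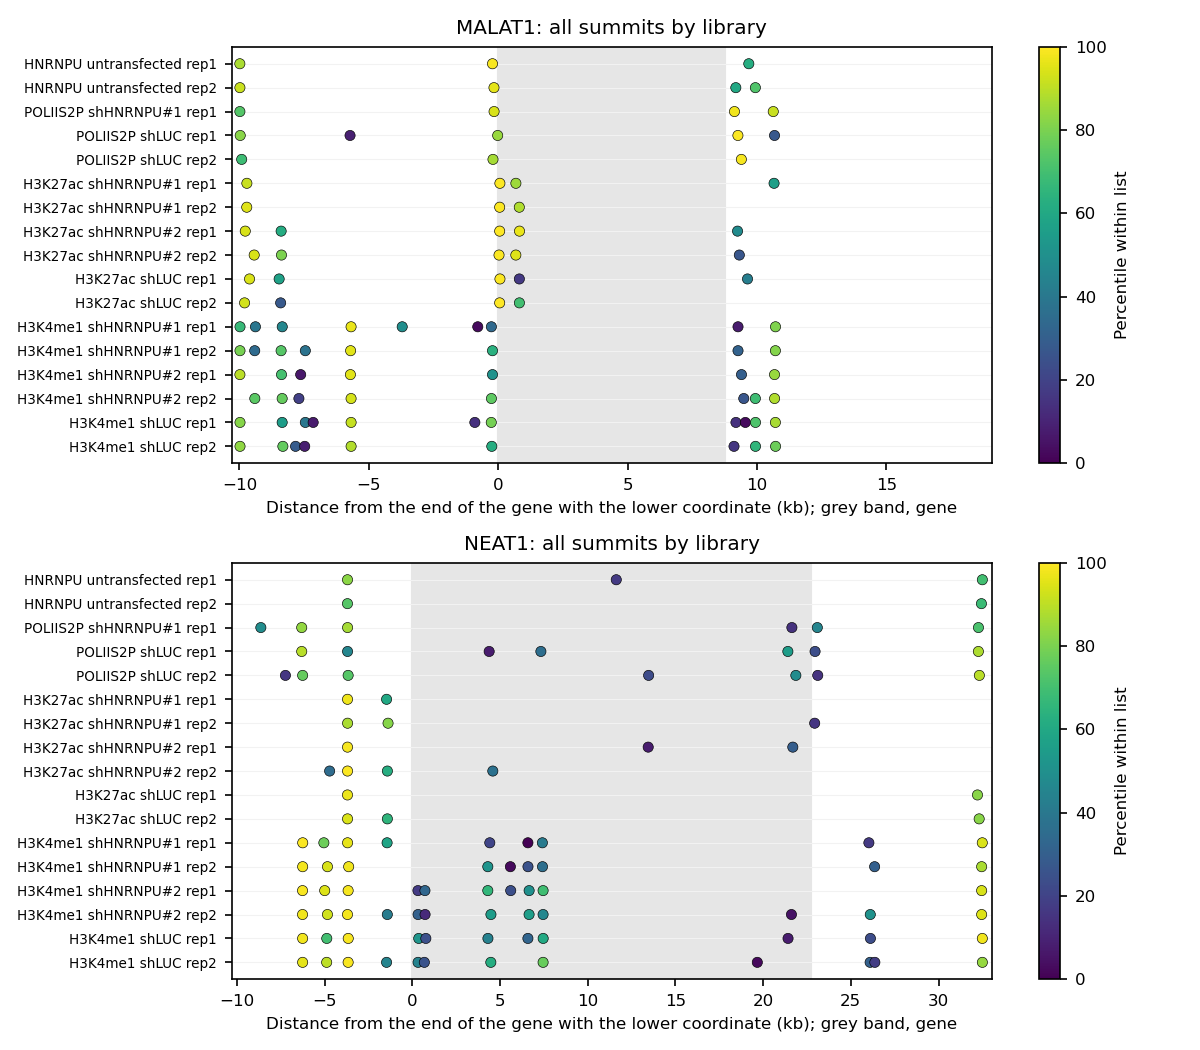
Positions of all summits at MALAT1 and NEAT1 in kb from the lower-coordinate end of the gene (grey band, gene), one line per library, coloured by percentile within the list. HNRNPU, POLIIS2P and H3K27ac meet at the start of MALAT1 and also far before it. At NEAT1 they meet before the lower-coordinate end, and POLIIS2P is strongest past the 3′ end of MALAT1.

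H3K27ac was high at MALAT1 in every library. The 4 shHNRNPU libraries had top percentiles of 99.5, 99.4, 99.9 and 99.6 and the shLUC libraries 99.5 and 99.8, from a summit 30 to 66 bp inside the gene. By file name, MALAT1 was the highest of the 7 genes in each of the 6 libraries, and the groups overlapped. The libraries titled H3K27ac shLUC had 91.0 and 88.4 at MALAT1, below 98.9 and 99.1 at NEAT1. NORAD (90.2 to 96.9 in shHNRNPU, 94.4 and 96.9 in shLUC), OIP5-AS1 (83.5 to 96.2, and 83.4 and 97.2), NEAT1 (87.3 to 99.6, and 96.9 and 94.2) and TUG1 (66.1 to 93.0, and 78.1 and 90.4) also overlapped between the groups. For NEAT1 the summit was the one at −3699 bp to −3693 bp, where both HNRNPU repeats had theirs. LINC-ROR and ESRG, the genes described in pluripotent cells, had the lowest H3K27ac by file name. In the libraries titled H3K27ac shLUC, TUG1 was the lowest, at 14.0 and 51.2.

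ESRG was the only one of the 7 genes whose H3K27ac libraries did not overlap between the groups. The shHNRNPU#1 libraries had top percentiles of 18.5 and 0 (no summit), the shHNRNPU#2 libraries 15.9 and 0.238, and the shLUC libraries 73.4 and 75.7. Every shHNRNPU library was below both shLUC libraries. The mean was 8.66 ± 9.92 (SD, n = 4) against 74.5 ± 1.64 (SD, n = 2), a difference of −65.9 percentile points (two-sided exact permutation test, p = 0.0667, the smallest that 15 assignments allow, adjusted p = 1 by Benjamini-Hochberg over 44849 genes). Of those genes, 11.9% did not overlap between the groups, 1.76% with shHNRNPU higher and 10.1% with shHNRNPU lower, so 1 of 7 is near the background. By sample title, 5 of the 7 genes did not overlap (MALAT1, TUG1 and NORAD higher by 9.88, 49.7 and 16.4 points, ESRG and LINC-ROR lower), beside 56.2% of all genes (11.2% higher, 45.0% lower), and ESRG remained lower (−59.5 points, exact permutation p = 0.0667, adjusted p = 0.183). By title, the ESRG values of shLUC came from another site (below), so the title naming adds no support. A lower percentile cannot be divided into fewer cells with the mark and less of the mark per cell.

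Of the 3 H3K27ac sites at ESRG, 1 did not overlap between the groups, past the higher-coordinate end. It did not set the top percentiles of 18.5 and 15.9 in shHNRNPU, which came from about 2 kb before the lower end. Both HNRNPU repeats and both shLUC POLIIS2P libraries had a summit from 7 to 106 bp past the higher-coordinate end, where H3K27ac stood at 73.4 and 75.7 in shLUC. In the shHNRNPU libraries H3K27ac had no summit there in either shHNRNPU#1 repeat, 14.8 in shHNRNPU#2 repeat 1 and 0.238 in repeat 2. POLIIS2P at this site was at 74.3 and 57.9 in shLUC and had no summit in shHNRNPU#1. The libraries titled H3K27ac shLUC had no summit at this site, so the H3K27ac difference there depends on the file names, whereas the POLIIS2P values do not. Their top percentiles, 67.3 and 69.0, came from 1434 to 1960 bp past the higher-coordinate end. Every list named H3K4me1 had a summit at that place and no H3K27ac list of the shHNRNPU cells did, so the title naming adds no support. At the other HNRNPU site of ESRG, about 2 kb before the lower end, H3K27ac was 18.5, 0, 15.9 and 0 in shHNRNPU and 0 and 73.5 in shLUC, and the groups overlapped. H3K4me1 had its own ESRG site 1434 to 1960 bp past the same end, at 68.1, 63.0, 66.5 and 75.8 in shHNRNPU and 67.3 and 69.0 in shLUC, and these groups overlapped.

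POLIIS2P over the rest of ESRG was not uniformly lower. About 2 kb before the lower-coordinate end it was 69.4 in shHNRNPU#1 against 96.2 and 92.0 in shLUC. At −955 bp to −441 bp it was 82.7 against 94.4 and 94.4, and at 1547 to 1819 bp inside the gene 57.3 against 85.0 and 75.7. The shHNRNPU#1 library was below both shLUC libraries at these 3 places. At 921 to 957 bp inside the gene, however, it was 93.7 against 89.2 and 93.3, which is the value that set the top percentile in shHNRNPU#1. The place of the strongest summit also differed between the shLUC libraries, which had it about 2 kb before the lower end in repeat 1 and at −955 bp to −441 bp in repeat 2.

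LINC-ROR, an RNA described as supporting reprogramming, differed between the shRNAs in H3K27ac at 1 site, by file name. The site 5748 to 6025 bp past its higher-coordinate end had no summit in either shHNRNPU#1 library, 71.3 and 55.5 in shHNRNPU#2, and 49.2 and 26.97 in shLUC. The shHNRNPU#2 values lay above both shLUC values and the shHNRNPU#1 values below them. The libraries titled H3K27ac shLUC had 63.4 and 66.1 there, between the shHNRNPU#2 values, and over the whole window shHNRNPU#2 overlapped with shLUC by file name too. The window mean was 31.8 ± 37.1 (SD, n = 4) in shHNRNPU and 59.1 ± 13.95 (SD, n = 2) in shLUC (exact permutation p = 0.4, adjusted p = 1), and by title the difference was −46.1 points, with every shHNRNPU library lower (exact permutation p = 0.133, adjusted p = 0.258). H3K4me1 was called at this place in all 6 libraries, at 64.1, 75.0, 74.7 and 73.9 in shHNRNPU and 63.4 and 66.1 in shLUC. HNRNPU repeat 2 had its only LINC-ROR summit here, at 61.8. The H3K27ac lists held 51655 and 40487 summits in shHNRNPU#1 and 75264 and 85142 in shHNRNPU#2, and the part of list length at this site was not tested. With lists cut to equal length, the window difference by file name went from −27.3 to −12.7 points. No share of all sites that differ between the shRNAs in this way is given.

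**Figure D3:**
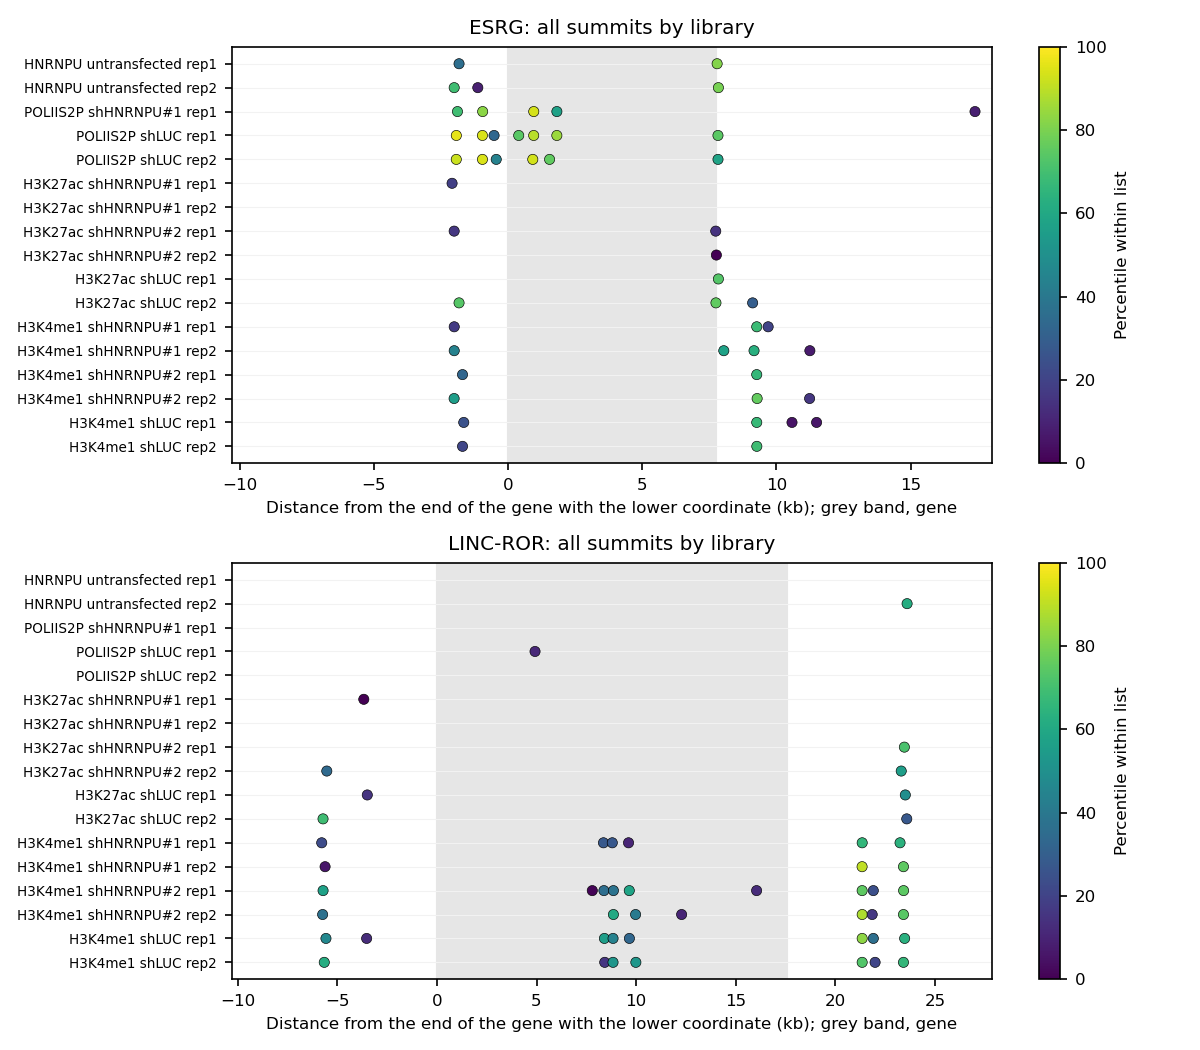
Positions of all summits at ESRG and LINC-ROR in kb from the lower-coordinate end of the gene (grey band, gene), one line per library, coloured by percentile within the list. At the higher-coordinate end of ESRG, H3K27ac stood at 73.4 and 75.7 in shLUC and at 14.8 or less in shHNRNPU; LINC-ROR had 1 POLIIS2P summit in 3 libraries.

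For H3K4me1 by file name, NEAT1 was the highest of the 7 genes in all 6 libraries, with 99.4, 98.1, 99.1 and 98.4 in shHNRNPU and 98.9 and 99.1 in shLUC. These summits lay outside the gene, at −6262 bp to −6252 bp or −3699 bp to −3632 bp from its lower-coordinate end. In the libraries titled H3K4me1 shLUC, MALAT1 had 99.5 and 99.8, above 96.9 and 94.2 at NEAT1. In windows of 2 kb, NEAT1 had 51.6 to 69.4 in shHNRNPU and 60.4 and 76.9 in shLUC, below MALAT1 in every library. In windows of 10 kb the NEAT1 groups overlapped. MALAT1 was the only gene whose groups did not. Its values were 96.6 and 95.5 in shHNRNPU#1, 95.5 and 93.6 in shHNRNPU#2, and 91.0 and 88.4 in shLUC, all from a site at −5713 bp to −5686 bp from the start. Every shHNRNPU library was above both shLUC libraries. The mean was 95.3 ± 1.26 (SD, n = 4) against 89.7 ± 1.87 (SD, n = 2), a difference of 5.58 points (exact permutation p = 0.0667, adjusted p = 0.954 over 47587 genes).

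Among all genes, 14.2% did not overlap in H3K4me1, 5.93% with shHNRNPU higher and 8.27% lower, so 1 of 7 is near the background. By sample title 4 of the 7 did not overlap (NEAT1 higher by 3.17 points, MALAT1, TUG1 and NORAD lower), beside 57.8% of all genes (39.8% higher, 18.0% lower), and MALAT1 turned to −4.37 points, TUG1 to −28.0 and NORAD to −26.8. At the −5713 bp site itself, the libraries titled H3K4me1 shLUC had no summit, and neither did any H3K27ac library of the shHNRNPU cells. TUG1 had the widest spread, 56.2, 36.9, 71.2 and 60.7 in shHNRNPU and 14.0 and 51.2 in shLUC, and its difference of 23.6 points was within it (exact permutation p = 0.2, adjusted p = 0.954). NORAD (50.6 to 82.8, and 81.0 and 74.1), OIP5-AS1 (84.9 to 95.0, and 82.7 and 89.9), LINC-ROR (65.8 to 90.3, and 83.2 and 72.7) and ESRG (63.0 to 75.8, and 67.3 and 69.0) overlapped as well. The median difference over the 7 genes was 1.79 points for H3K4me1 and −1.76 for H3K27ac, beside −0.43 and −3.84 over all genes.

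Single sites were also compared, a choice made after the values by gene had been seen. Summits of the 6 libraries of a mark were joined into a site where consecutive ones lay within 500 bp. Of 32 H3K27ac sites at the 7 genes, 1 was higher and 3 were lower in every shHNRNPU library, beside 0.800% and 6.08% of 163542 sites genome-wide. Of 50 H3K4me1 sites, 2 were higher and 2 lower, beside 3.33% and 6.71% of 264941. P-values are given below only for sites picked because their groups did not overlap, and so add no support.

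The higher H3K27ac site was in MALAT1, 680 to 822 bp from the start. It had 85.4, 88.0, 96.7 and 94.9 in shHNRNPU and 16.8 and 69.7 in shLUC, a difference of 48.1 points (exact permutation p = 0.0667, not adjusted). All 4 shHNRNPU libraries were above both shLUC libraries, while the stronger summit at 30 to 66 bp overlapped between the groups. No summit was present here in the libraries titled H3K27ac shLUC, so shHNRNPU was higher by either naming. None of the lists named H3K4me1 had a summit here, so the title naming adds no support.

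The lower H3K27ac sites were at ESRG (above), NEAT1 and OIP5-AS1. Past the higher-coordinate end of NEAT1, at 9477 to 9573 bp and beside FAUP4, no shHNRNPU library had a summit, whereas shLUC had 82.2 and 82.2 (exact permutation p = 0.0667, not adjusted). The libraries titled H3K27ac shLUC had 97.7 and 84.1 nearby, at 9714 to 9756 bp, so by title shHNRNPU was lower too. All 6 lists named H3K4me1 had a summit at that neighbouring place, so the title naming adds no support. Both HNRNPU repeats had a summit beside the H3K27ac site (69.6 and 68.2), and POLIIS2P was at 71.5 in shHNRNPU#1 against 87.8 and 89.5 in shLUC. H3K4me1 was called in all 6 libraries at 9714 to 9756 bp, at 94.5, 87.4, 94.0 and 94.7 in shHNRNPU and 97.7 and 84.1 in shLUC, and the groups overlapped.

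Inside OIP5-AS1, 25245 to 25388 bp from its lower-coordinate end, H3K27ac was 45.3, 0, 0 and 71.8 in shHNRNPU and 81.0 and 79.7 in shLUC, where 0 stands for no summit (exact permutation p = 0.133, not adjusted). POLIIS2P at the same place was 85.3 in shHNRNPU#1 and 75.3 and 84.9 in shLUC, and was not lower. The libraries titled H3K27ac shLUC had no summit there. This site and 1 at 19717 to 19735 bp, with H3K4me1 at 82.7 to 95.0 and POLIIS2P at 86.7, 86.8 and 80.3, had no HNRNPU summit in either repeat.

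**Figure D4:**
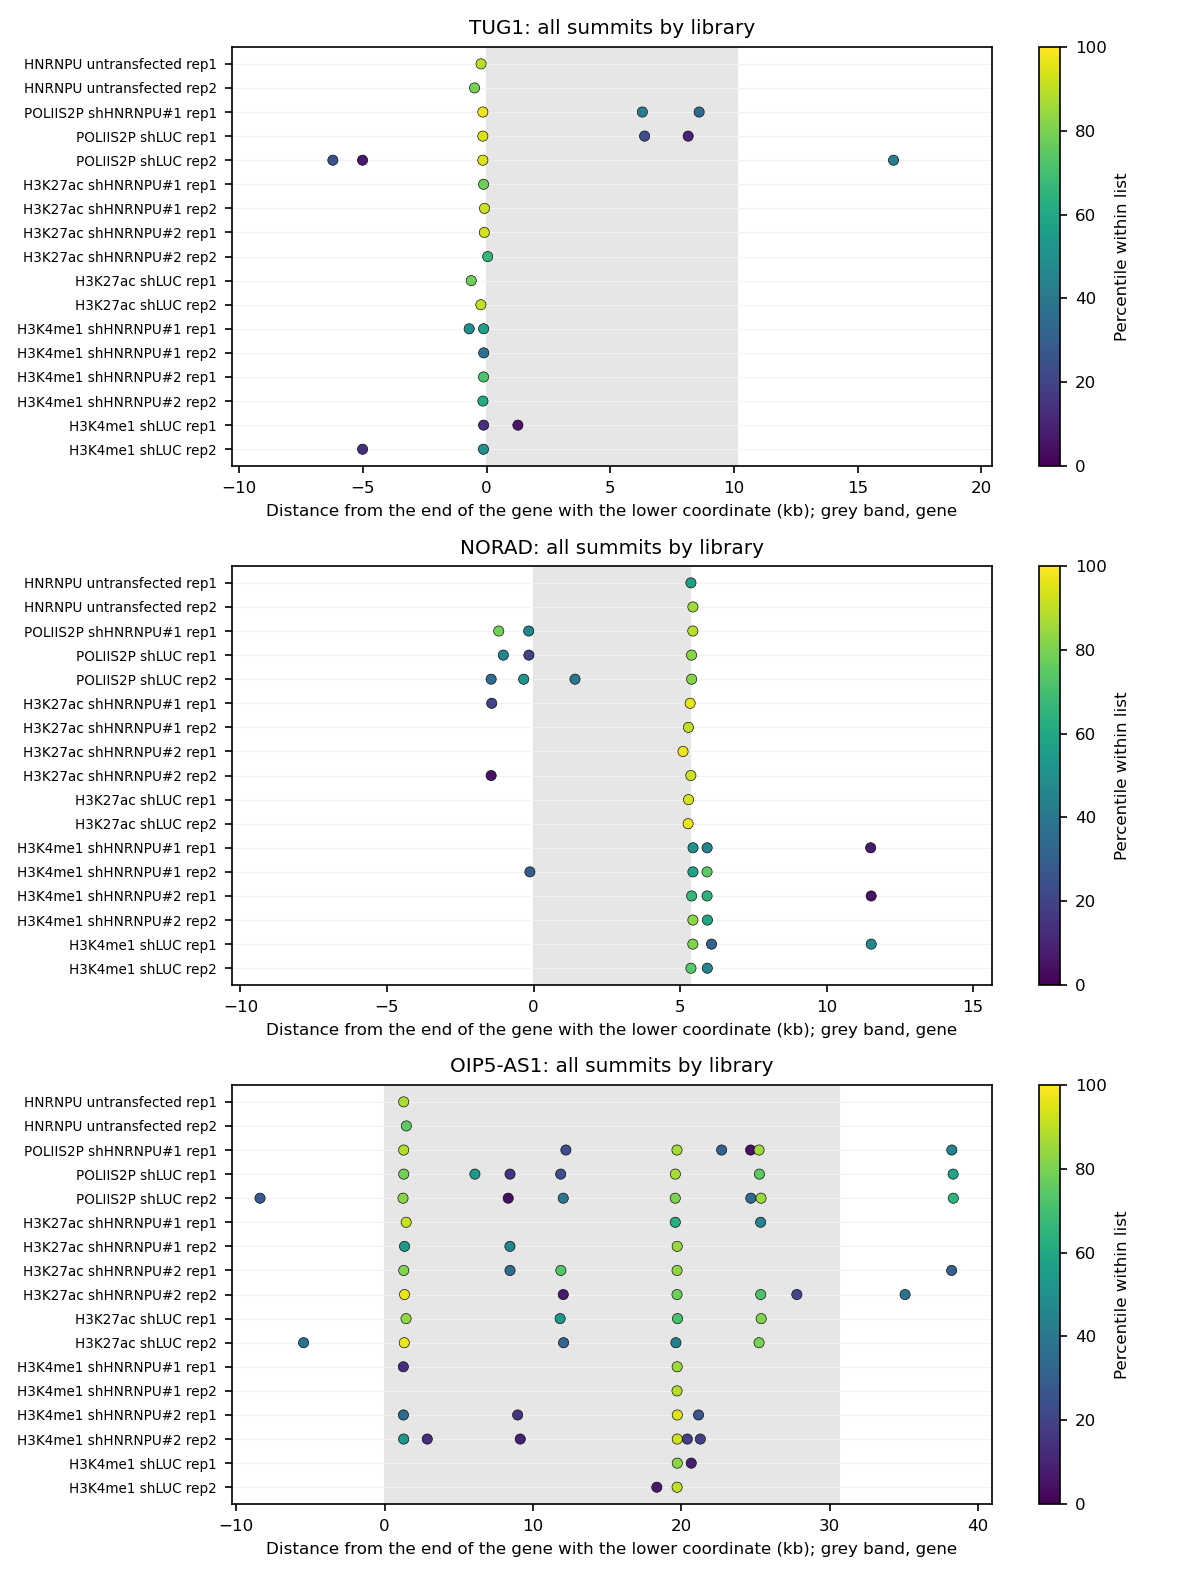
Positions of all summits at TUG1, NORAD and OIP5-AS1 in kb from the lower-coordinate end of the gene (grey band, gene), one line per library, coloured by percentile within the list. At TUG1 and at the higher-coordinate end of NORAD, its start, the 4 antibodies meet at 1 place, while OIP5-AS1 has further internal sites without HNRNPU.

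The higher H3K4me1 sites were the one before MALAT1 and a site at −6262 bp to −6252 bp from NEAT1, at 99.4, 98.1, 99.1 and 97.8 in shHNRNPU and 97.7 and 95.9 in shLUC. Neither library titled H3K4me1 shLUC had a summit at either of them. At NEAT1, the gap between the groups was small next to their spread (exact permutation p = 0.133, not adjusted). The lower ones were both at NEAT1. At −3699 bp to −3632 bp, the place of the HNRNPU summits, H3K4me1 was 96.1, 97.7, 98.8 and 98.4 in shHNRNPU and 98.9 and 99.1 in shLUC (exact permutation p = 0.2, not adjusted). At 318 to 768 bp inside the gene it was 0, 0, 33.1 and 30.5 against 52.0 and 44.7 (exact permutation p = 0.133, not adjusted). The libraries titled H3K4me1 shLUC overlapped with shHNRNPU at both lower sites.

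**Figure D5:**
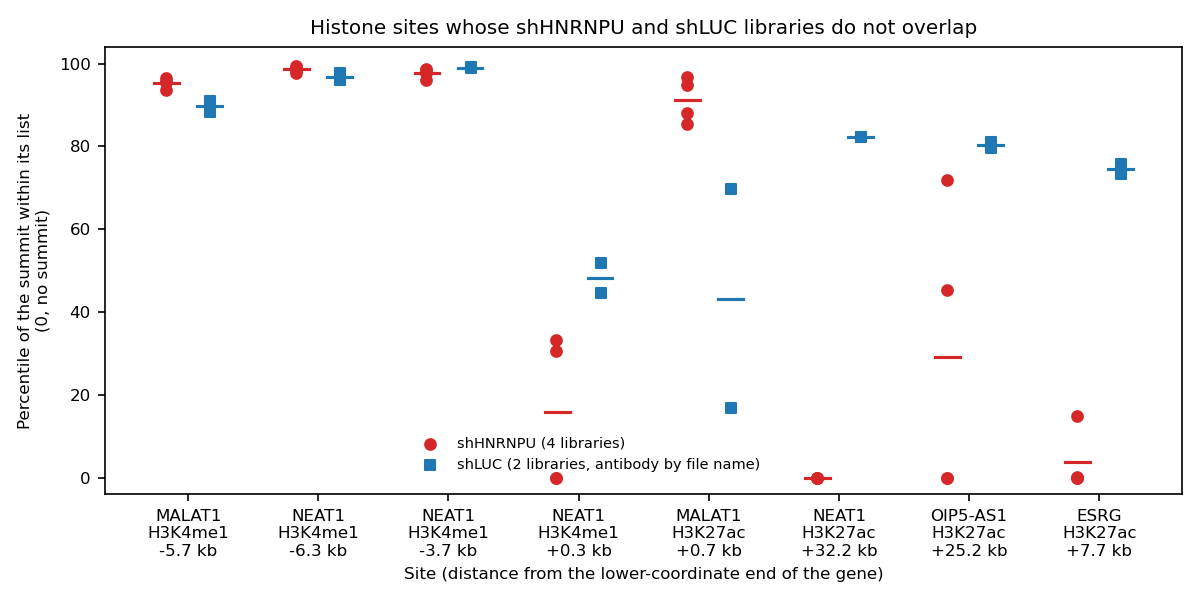
Percentile of the summit at the 8 histone sites whose shHNRNPU libraries (red circles, 4) and shLUC libraries (blue squares, 2, antibody by file name) did not overlap; short lines are means and 0 marks no summit. The means differed most at NEAT1, where no shHNRNPU library had an H3K27ac summit past the higher-coordinate end and both shLUC libraries stood at 82.2, and least at the H3K4me1 sites before NEAT1.

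POLIIS2P sites were counted by presence only. Of 43 sites at the 7 genes, 3 were present in shHNRNPU#1 and absent from both shLUC libraries, beside 13.8% of 132733 sites, and 2 were absent from shHNRNPU#1 and present in both shLUC libraries, beside 9.97%. The 3 present ones were at −8639 bp from NEAT1 (48.5), 22722 bp inside OIP5-AS1 (31.4) and 9670 bp past ESRG (8.95). The absent ones were the end of ESRG and a weak internal site of OIP5-AS1 (14.8 and 3.13 in shLUC).

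Partners of these RNAs were read in the same way. Of 12 genes for paraspeckle, speckle and PUMILIO proteins, 9 had HNRNPU summits of both repeats within 250 bp, 12 had H3K27ac in all 6 libraries and 12 POLIIS2P in all 3. NONO and SRSF2 had a summit in each repeat but not within 250 bp, and PSPC1 in only 1 repeat. The shares over all genes were 35.9% for HNRNPU, 35.5% for H3K27ac and 46.5% for POLIIS2P. Of 12 other lncRNA genes, 10 had each of the 3, the exceptions being CYTOR and LINC00458. By file name, the partner genes that did not overlap were SRSF2, a splicing factor (H3K4me1 19.5 to 58.2 in shHNRNPU, 12.2 and 13.8 in shLUC), and RBM14, a paraspeckle protein gene (H3K27ac 97.3 to 98.0, and 98.6 and 98.6). The lncRNA genes were JPX (H3K4me1 68.1 to 80.0, and 82.4 and 84.6) and LNCPRESS1 (H3K4me1 81.6 to 92.6, and 74.0 and 77.4), while 0 of the 11 with any H3K27ac summit did so for that mark. The shares of all genes that did not overlap were 14.2% for H3K4me1 and 11.9% for H3K27ac. By sample title, 10 of the 12 partner genes (2 higher, 8 lower) did not overlap in H3K4me1 and 9 (7 higher, 2 lower) in H3K27ac, beside 8 of 12 lncRNA genes for each mark. Under that naming, 57.8% of all genes did not overlap in H3K4me1 (39.8% higher, 18.0% lower) and 56.2% in H3K27ac (11.2% higher, 45.0% lower). SRSF2 and LNCPRESS1 then turned lower in H3K4me1 and RBM14 turned higher in H3K27ac, while JPX stayed lower. These genes are named because their values did not overlap.

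Each member was also set against genes whose window did not overlap its own and that had a summit in at least as many libraries. Neighbours such as TALAM1 were thus left out. Among the genes kept, those with the smallest mean absolute difference in top percentile from MALAT1 over the 17 libraries were CHD2, a chromatin remodeller (1.32 points), and FAM53C (1.34). For NEAT1 they were ADA2, an adenosine deaminase (1.48), and CCDC6 (1.81). The nearest genes were farther from TUG1 (PGGT1B and RPS2P26, both 7.42), NORAD (NDUFB4, 3.80, and LOC107984674, 4.81), OIP5-AS1 (TNK2, 3.48, and LOC112268151, 3.85), LINC-ROR (LOC124900762, 7.98, and CPN1, 8.01) and ESRG (C19orf73, 9.64, and LPCAT2, 10.1). PGGT1B and the pseudogene RPS2P26 are both on chromosome 5 with the same value, so they may share their summits. Among the genes kept by these rules, ESRG had the least similar nearest gene of the 7.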

How the data were processed

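CUT&Tag libraries (17) of H1 cells were analysed. For each library the authors deposited a list of summits with −log10 significance values, and for HNRNPU also a joint list of 48095 intervals of 400 bp with a score of 0 throughout, which the authors deposited without further values. The submitters' processing notes name cutadapt, Bowtie2, SAMtools, MACS2, deepTools and hg38, without versions. The lowest value was 2.00 to 2.01 in the histone lists and 1.30 in the others. Peaks were called per library, and a deeper library gives a longer list, so summits were compared by percentile within a list. The paper listed with the series does not describe these libraries and served for style only.

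Summits were matched to RefSeq genes (GRCh38.p14) widened by 10 kb, in Python 3.11.15 with numpy 2.4.6, pandas 2.3.3 and matplotlib 3.10.9. Groups followed the sample titles, with the shLUC histone antibodies by file name. Genes were called where all shHNRNPU libraries lay above, or all below, both shLUC libraries. Means were compared by a two-sided exact permutation test over 15 assignments, which cannot reach p below 0.0667, with Benjamini-Hochberg adjustment over all genes with a summit in the compared libraries. 28 such tests were made on the members by gene. The same test was run without adjustment on each of their 50 H3K4me1 and 32 H3K27ac sites. POLIIS2P used a margin of 5 points, with no test. The procedure was tested on simulated data. The members, lists and tests were chosen with earlier results of these data known. All members were named, with the 2 genes nearest to each in mean absolute difference over the libraries. Only genes whose window did not overlap the member's and that had a summit in at least as many libraries were eligible. No 2 repeats had identical lists (at most 8.70% of summits at the same base).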

Additional observations from a re-analysis of the deposited data

Results flagged for a closer look

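H3K27ac at NEAT1 had a sample apart from its group. The shHNRNPU#1 repeat 2 library had a top percentile of 87.3, while the other 3 shHNRNPU libraries lay between 97.5 and 99.6, so its gap to the nearest was 0.833 of the whole range, above Dixon's 95% limit for 4 samples. Its list is the shortest of the H3K27ac lists (40487 summits), and the part of this in the value was not tested. Chance flags about 5% of groups, and 14 groups of 4 were examined.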

How the results depend on the processing

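Few statements at these genes held under every alternative. The HNRNPU count of 5 of 7 stayed within 1.5 times under each alternative run (the 20000 strongest summits, 100 bp between repeats, 2 kb windows, the joint list). With the antibody by sample title, genes that did not overlap went from 1 to 4 for H3K4me1 and from 1 to 5 for H3K27ac, the H3K27ac median moved to 2.71 points and the MALAT1 H3K4me1 difference reversed to −4.37. Windows of 2 kb left 0 genes for H3K4me1. For H3K4me1, shHNRNPU#2 alone gave 3. For H3K27ac, shHNRNPU#1 alone gave 3 and shHNRNPU#2 alone 2. For POLIIS2P, a margin of 0 points gave 6. By sample title, 57.8% of all genes did not overlap for H3K4me1 and 56.2% for H3K27ac. No share of all genes is given for the other alternatives, including those that leave out 1 library. Fewer libraries or a smaller margin make such a call easier to reach, so these counts are no result about the members. The cause of the changes was not tested.

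Leaving out 1 library at a time gave 1 to 3 genes for H3K4me1 (3 without shLUC repeat 2, 2 without shHNRNPU#1 repeat 2), 1 to 2 for H3K27ac (2 without shHNRNPU#1 repeat 2 or either shLUC repeat), 1 to 2 for POLIIS2P (2 without shLUC repeat 2) and an H3K27ac median of −8.17 to −0.49 (−8.17 without shLUC repeat 1). The ESRG H3K27ac difference ranged from −69.2 to −63.0 and the MALAT1 H3K4me1 difference from 4.26 to 6.90. With every list cut to the length of the shortest of its mark, ESRG H3K27ac moved to −52.2 and MALAT1 H3K4me1 to 6.92, and both still did not overlap.

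Site counts, with all their alternatives chosen after seeing the data, were less stable. From 4 H3K4me1 sites, naming by title gave 21, shHNRNPU#1 alone 12, shHNRNPU#2 alone 13 and leaving out 1 library 6 to 18 (18 without shLUC repeat 2). From 4 H3K27ac sites the same gave 23, 8 and 8, and 4 to 10 (10 without shLUC repeat 1). No share of all sites is given for these alternatives.

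Same-numbered repeats did not deviate together (correlations of −0.02 to 0.03 over genes), so the numbers were not treated as pairs. With the replicate block, 9 assignments allow no p under 0.111, the value for ESRG H3K27ac and MALAT1 H3K4me1.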
